A study of Mus musculus with 6 samples.

Results

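Chemokines are small secreted proteins that steer migrating cells. Levels of 10 chemokine genes were taken from mouse leukaemia initiating cells (LICs), which can found a new leukaemia. They were chosen by symbol as CC and CXC chemokines (Ccl2, Ccl3, Ccl4, Ccl5, Ccl6, Ccl9, Cxcl2, Cxcl10, Cxcl16 and Pf4), 10 of the 23337 genes in the deposited count table. The table held 6 libraries of sorted LICs, 3 labelled neonatal (replicates 4, 7 and 8) and 3 labelled adult (replicates 1, 2 and 4), with haematopoietic stem and progenitor cells given as the source. The neonatal libraries held 3932833 (replicate 4), 64712241 and 66132051 counts, and the adult libraries 60113466 to 65183188. The labels give no strain, driver of the leukaemia, treatment, exact age or sex. They also do not tie replicates to separate animals, and the p-values therefore cover only spread among these 6 libraries, possibly technical.

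A chemokine binds a G protein-coupled receptor on the responding cell, and the CC or CXC name describes the spacing of the first cysteines of the protein. CC chemokines mostly draw monocytes, macrophages and lymphocytes, and CXC chemokines draw neutrophils or activated lymphocytes. In bone marrow they also act on blood progenitors, and myeloid cells make several of them.

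The libraries had limits that touch the values below. Neonatal replicate 4 was the shallowest, so 0 counts there allow up to 0.897 CPM (the depth-scaled count unit, here on TMM-scaled library sizes, for 3 counts at 95% confidence), against 0.0425 to 0.0502 CPM in the other 5. These floors cover counting error only. In log2 CPM, neonatal replicate 4 correlated with neonatal replicates 7 and 8 at 0.880 and 0.865. With adult replicates 1, 2 and 4 the correlations were 0.857, 0.869 and 0.875. Neonatal replicates 7 and 8 correlated at 0.954, so neonatal replicate 4 stood apart from both. The cause was not tested. Xist was at 51.7 to 186 CPM in the neonatal and 0.610 to 0.919 CPM in the adult libraries, and Ddx3y at 0 to 0.0148 CPM in the neonatal and 98.7 to 154 CPM in the adult libraries, so sex and age group cannot be told apart. All 10 listed markers of LICs and myeloid progenitors, among them Kit, Cd34, Myb and Mpo, had counts in every library. By edgeR 0 of the 10 passed and 2 had an unadjusted p under 0.05 (11.9% over all genes). DESeq2 called 1 (5.72% over all genes), limma voom 1 (7 of 13272 genes) and limma voom with library quality weights 2 (1043 of 13272 genes). Without neonatal replicate 4 the growth factor receptor genes Flt3 and Kit rose in neonatal LICs, 2 of the 10 against 5.98% of all genes (edgeR adjusted p = 0.0348 and 0.0361, lowest and highest over 16 alternatives 7.8e-15 and 0.389 for Flt3 and 0.0361 and 0.876 for Kit). Flt3 was at 256 to 1230.4 CPM in the neonatal and 4.58 to 19.3 CPM in the adult libraries, and Kit at 23.6 to 264 CPM in the neonatal and 50.03 to 85.8 CPM in the adult libraries. Mpo, the myeloperoxidase gene, ranged from 60.9 to 1980 CPM in the neonatal and 1097 to 10361 CPM in the adult libraries. The transcription factor gene Myb was at 683 to 909 CPM in the neonatal and 813 to 1399.5 CPM in the adult libraries, and Sfpi1 at 270.2 to 675 CPM in the neonatal and 334 to 449 CPM in the adult libraries. In bulk RNA, fewer cells that make a chemokine and less RNA per cell cannot be told apart.

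Ccl9 RNA was the largest part of chemokine RNA in every library, though nearly level with Ccl6 RNA in adult replicate 1. Per kilobase of exon, Ccl9 took 83.7%, 80.4% and 74.8% of the summed level of 40 listed chemokines in neonatal replicates 4, 7 and 8, and 45.8%, 54.0% and 82.3% in adult replicates 1, 2 and 4. It ranked first of the 40 in all 6 libraries, and between 413 and 1013 of the 23337 genes by level per kilobase. Ccl6 came next in adult replicates 1 and 2, with 45.2% and 31.8%, while it held 2.88% in adult replicate 4 and 3.47% to 3.90% in the neonatal libraries. Ccl3 came next in the neonatal libraries, with 9.33%, 11.6% and 16.4%, against 1.75%, 6.12% and 8.63% in adult replicates 1, 2 and 4. The 10 genes together made up 97.7% to 98.4% of the listed chemokine level in neonatal LICs and 96.5% to 97.1% in adult LICs. Ccl5, Cxcl2, Cxcl10, Cxcl16 and Pf4 each held under 1% in every library.

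**Figure D1:**
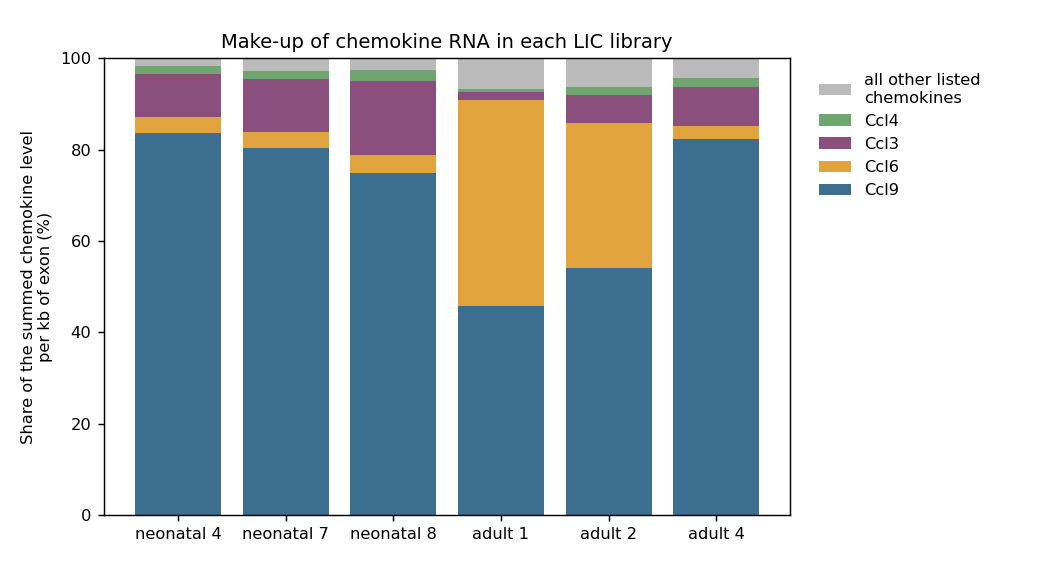
Share of the summed level of 40 listed chemokine genes, in percent of CPM per kilobase of exon, in each of 3 neonatal and 3 adult LIC libraries (stacked bars). Ccl9 holds the largest share in each library, and Ccl6 holds 45.2% and 31.8% in adult replicates 1 and 2 against 2.88% to 3.90% in the other 4.

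By edgeR's quasi-likelihood test none of the 10 genes passed an adjusted p of 0.05 between neonatal and adult LICs. Of the 7 abundant enough to be tested, Ccl3, Ccl4 and Ccl9 had positive and Ccl6, Cxcl2, Cxcl10 and Cxcl16 negative log2 fold changes (neonatal minus adult). Of all 13272 genes tested 7 passed (0.0527%), with 2 higher (0.0151% of those tested) and 5 lower (0.0377% of those tested) in neonatal LICs. Xist and the Y-linked genes Ddx3y, Eif2s3y, Kdm5d and Uty were among these 7. With chromosomes X and Y left out 0 of 12848 genes passed. The median log2 fold change was -1.14 over the 7 chemokines and 0.05 over all genes. Ccl3, Ccl6 and Cxcl10 had an unadjusted p under 0.05 by edgeR, as did 11.9% of all genes. With neonatal replicate 4 left out 9 of the 10 were tested and again 0 passed, while 828 of 13856 genes did (5.98%, or 3.72% higher and 2.25% lower in neonatal LICs). DESeq2 called 1 of the 7, Ccl6, against 759 of all genes tested (5.72%), and limma voom called 0.

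**Figure D2:**
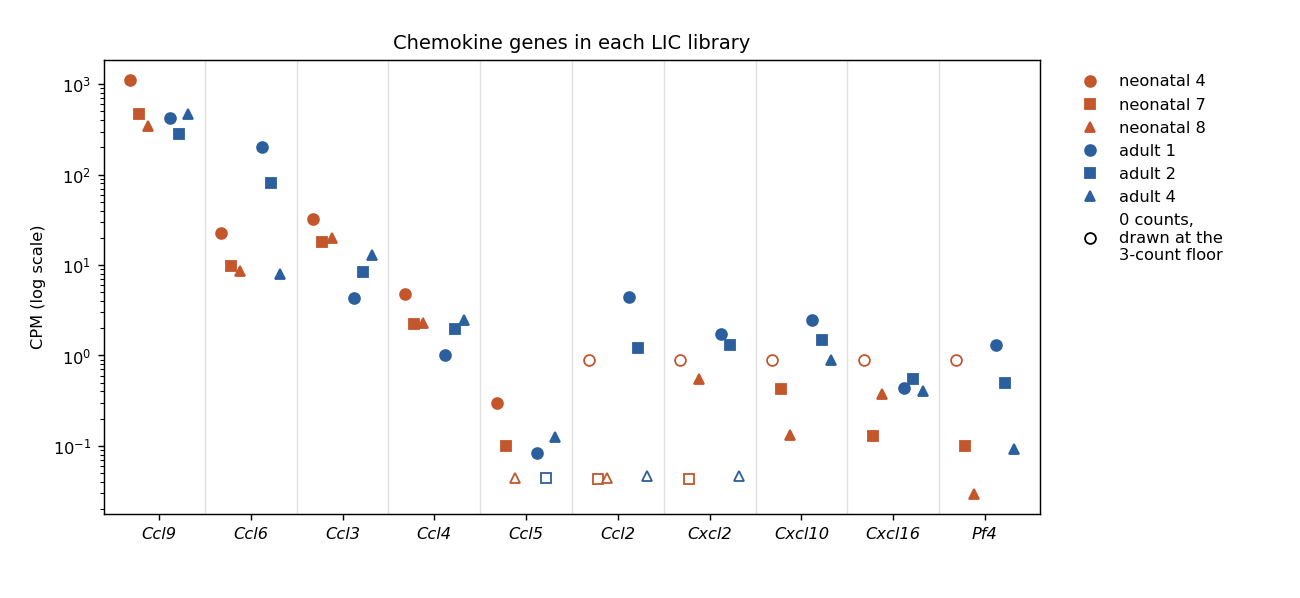
CPM (log scale) of each of the 10 chemokine genes in each library, neonatal left of adult. Open symbols mark 0 counts, drawn at the floor of 3 counts, which is 0.897 CPM in neonatal replicate 4. Ccl9 lies above all other members in every library, and Ccl2 has counts in adult replicates 1 and 2 only.

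Ccl9 and Ccl6 encode CC chemokines that in rodents signal through the receptor CCR1 and draw monocytes and other myeloid cells. Their genes are neighbours on chromosome 11 (mm10), Ccl9 from 83572917 to 83578636 and Ccl6 from 83587886 to 83593087, both on the minus strand and 9.2 kb apart. The 250 bases upstream of each gene's start are shown because the neighbours differed in how much they varied between libraries. The sequences are from RefSeq (GRCm38.p6, the assembly of mm10), minus strand, for Ccl9 chr11:83578637-83578886 and for Ccl6 chr11:83593088-83593337, with motif matches in capitals.
Ccl9: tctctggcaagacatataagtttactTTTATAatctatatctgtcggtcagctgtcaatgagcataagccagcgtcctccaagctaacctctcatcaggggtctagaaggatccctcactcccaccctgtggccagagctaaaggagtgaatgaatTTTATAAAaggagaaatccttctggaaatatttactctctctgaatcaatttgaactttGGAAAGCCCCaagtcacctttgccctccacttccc
Ccl6: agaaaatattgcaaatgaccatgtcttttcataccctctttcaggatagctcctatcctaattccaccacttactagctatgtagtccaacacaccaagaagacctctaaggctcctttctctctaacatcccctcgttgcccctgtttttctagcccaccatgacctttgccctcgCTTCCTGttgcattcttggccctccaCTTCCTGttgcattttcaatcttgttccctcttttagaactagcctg
The capitals mark 4 motifs chosen after the windows were seen and searched on both strands, where overlapping matches count separately: an NF-kB motif (GGG, 3 bases of any kind, TTCC), an ETS core (CAGGAAG), an interferon-response-like motif (GAAA, 2 bases of any kind, GAAA) and a TATA box (TATAAA). In all 32851 windows of the same length, 4.65%, 10.8%, 2.98% and 12.4% held them. The Ccl9 window held 3 TATA box matches, of which those starting 94 and 92 bases upstream overlap, and 1 NF-kB match starting 35 bases upstream. The Ccl6 window held 2 ETS core matches, starting 73 and 47 bases upstream. The longest run common to both windows was 13 bases (gccctccacttcc). A match is a description of letters and not of binding.

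Ccl9 had 1102, 473 and 347 CPM in replicates 4, 7 and 8 of the neonatal group, against 425, 285 and 473 CPM in adult replicates 1, 2 and 4. Neonatal replicate 4 was the highest and the other 5 libraries overlapped. The log2 fold change was 0.70 ± 0.48 (SE, edgeR adjusted p = 0.640) and became 0.07 without neonatal replicate 4 (edgeR adjusted p = 0.892). The highest library held 3.18 times the lowest within the neonatal group and 1.66 times within the adult group.

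Ccl6 was at 22.4, 9.74 and 8.62 CPM in replicates 4, 7 and 8 of the neonatal group, against 199.96, 80.2 and 7.90 CPM in adult replicates 1, 2 and 4. Adult replicates 1 and 2 stood above all neonatal libraries and adult replicate 4 below all of them, so the groups overlapped. Within the adult group the highest held 25.3 times the lowest. The log2 fold change of -2.86 ± 1.0 (SE) did not pass edgeR's test (adjusted p = 0.321), while DESeq2 gave -2.78 with an adjusted p of 0.0418. Over 16 alternatives the adjusted p ran from 0.0418 to 0.734 and the sign stayed negative, and leaving out single libraries gave -3.40 (without adult replicate 4) to -1.69 (without adult replicate 1).

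The Ccl9 to Ccl6 ratio of CPM per kilobase shows the same split. It was 23.5, 23.2 and 19.2 in neonatal replicates 4, 7 and 8, and 1.01, 1.70 and 28.6 in adult replicates 1, 2 and 4. Adult replicate 4 thus lay with the neonatal libraries in this ratio.

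The summed markers of macrophages and of maturing neutrophils were also highest in adult replicates 1 and 2. In adult replicate 4 the macrophage sum lay among the neonatal libraries. The neutrophil sum there stood above every neonatal library, unlike Ccl6. The summed level of 11 macrophage markers was 71.7, 214 and 85.7 CPM in replicates 4, 7 and 8 of the neonatal group, against 519, 662 and 142 CPM in adult replicates 1, 2 and 4. Of the 9 tested markers 8 had a negative log2 fold change (median -3.20). By edgeR none passed and 5 had an unadjusted p under 0.05 (11.9% over all genes). DESeq2 called 3 (5.72% over all genes), limma voom 0 and limma voom with library quality weights 1 (1043 of 13272 genes). Most of that sum was Vcam1, an adhesion molecule gene, at 27.2, 88.5 and 13.6 CPM in neonatal libraries and 426, 528 and 65.2 CPM in the adult ones, and Emr1, the F4/80 antigen gene, at 36.5 to 113 CPM in neonatal libraries and 62.7 to 122 CPM in the adult ones. Cd163, a scavenger receptor gene, was at 7.47 to 12.1 CPM in neonatal libraries and 2.40 to 6.45 CPM in the adult ones.

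Other genes of the macrophage list, picked after their values were seen, were lower than Vcam1 and Emr1. C1qa, a complement gene of tissue macrophages, had 0, 0 and 0.222 CPM in neonatal libraries and 3.38, 0.818 and 1.37 CPM in the adult ones, and Cd5l, another macrophage gene, had 0 counts in the neonatal libraries and 0.417 to 1.59 CPM in the adult ones. The summed level of 10 neutrophil markers was 292, 156 and 79.6 CPM in neonatal libraries and 5971, 14882 and 1844.5 CPM in the adult ones. In the adult libraries it was largely Camp and Ngp, both granule protein genes, and S100a8, a calprotectin subunit gene. In the neonatal libraries Lcn2 was the highest of the list. It was at 137, 74.7 and 51.7 CPM there and at 365, 559 and 88.6 CPM in the adult libraries. Camp was at 0.237 to 10.1 CPM in neonatal libraries and 444 to 5386 CPM in the adult ones, and Ngp at 2.40 to 27.6 CPM in neonatal libraries and 589 to 3895 CPM in the adult ones. S100a8 was at 0.652 to 49.3 CPM in neonatal libraries and 447 to 2779 CPM in the adult ones. All 10 neutrophil markers had a negative log2 fold change (median -4.62). None passed edgeR's test over 6 libraries, and 6 had an unadjusted p under 0.05 (11.9% over all genes). DESeq2 called 5 (5.72% over all genes), limma voom 0 and limma voom with library quality weights 4 (1043 of 13272 genes). Without neonatal replicate 4, 1 of the 10, S100a8, fell in neonatal LICs by edgeR (adjusted p = 0.0437, and between 5.67e-06 and 0.405 in 16 alternatives). The part of either cell type in the Ccl6 values was not tested.

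Ccl3 and Ccl4 encode inflammatory CC chemokines that draw monocytes and lymphocytes, and Ccl3 signals through CCR1 among other receptors. Ccl3 is known as an inhibitor of stem and progenitor cell proliferation in mouse bone marrow. The genes lie 13.2 kb apart on chromosome 11, Ccl3 from 83647843 to 83649378 (minus strand) and Ccl4 from 83662584 to 83664683 (plus strand). Ccl3 was at 32.3, 18.0 and 20.0 CPM in replicates 4, 7 and 8 of the neonatal group, against 4.27, 8.48 and 13.0 CPM in adult replicates 1, 2 and 4. Every neonatal library was above every adult library. Of the 7 tested chemokines Ccl3 was the 1 without overlap once 0 counts are taken as any level up to the floor, a reading of zeros added after the data were seen. By that reading 7.69% of all genes tested were higher and 10.2% lower in neonatal LICs without overlap. With 0 counts taken as 0 CPM, Cxcl10 and Cxcl16 also lay lower, and the background was 19.7%, or 7.69% higher and 12% lower. Without neonatal replicate 4 the background of genes without overlap was 50.6%, or 25% higher and 25.6% lower. The log2 fold change of Ccl3 was 1.44 ± 0.50 (SE, edgeR adjusted p = 0.316), and 1.15 ± 0.48 without neonatal replicate 4 (edgeR adjusted p = 0.170). It was positive in all 16 alternatives (1.15 to 1.87) and called in none of them (adjusted p 0.0625 to 0.618).

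Ccl4 was at 4.78, 2.25 and 2.27 CPM in neonatal libraries, against 1.01, 1.98 and 2.48 CPM in the adult ones. Here the groups overlapped, with adult replicate 4 above neonatal replicates 7 and 8 (0.73 ± 0.65 as log2 fold change and SE, with an edgeR adjusted p of 0.735, and 0.32 without neonatal replicate 4). Per kilobase, Ccl3 stood above Ccl4 by a factor of 5.64, 6.66 and 7.37 in neonatal replicates 4, 7 and 8, and of 3.55, 3.58 and 4.40 in adult replicates 1, 2 and 4. As computed, the ratios did not overlap between the groups, but that of neonatal replicate 4 rests on 16 Ccl4 counts. Counting error was not taken into the ratios, and no background over other gene pairs was computed. The ratios were chosen after the values of both genes were seen and were not tested.

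Ccl5, a chemokine of T cells, NK cells and platelets, was close to absent. It had 1, 7 and 0 counts in neonatal replicates 4, 7 and 8, against 5, 0 and 8 counts in adult replicates 1, 2 and 4, which is at most 0.299 CPM. Each group had a library without a count. The pooled ratio of neonatal to adult was 0.831, with a counting interval of 0.299 to 2.16 (exact binomial, 95%), so no difference was detectable at this depth. It was too low for the edgeR filter with or without neonatal replicate 4. Of 12 T and NK cell markers found, 6 had 0 counts in every library, among them Cd3e, Cd3g, Cd4 and Gzmb, and none of the 5 tested had an unadjusted p under 0.05 by edgeR, nor was any called by DESeq2 or limma voom. Lck, a T cell kinase gene, was at 0.387 to 1.67 CPM over the 6 libraries and Klrb1c, an NK cell receptor gene, at 0.163 to 1.49 CPM. The T cell marker Cd3d had counts in every library (0.0779 to 0.342 CPM), and Cd8a was at 0 to 0.313 CPM. Nkg7, a granule gene, was the exception at 35.9 to 270 CPM in neonatal libraries and 44.3 to 112 CPM in the adult ones.

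Ccl2, which draws monocytes through CCR2 (chromosome 11, 82035577 to 82037452), had 0 counts in all 3 neonatal libraries, against 265, 81 and 0 counts in adult replicates 1, 2 and 4. In CPM the adult values were 4.44, 1.21 and 0. Only adult replicates 1 and 2 had reads, and adult replicate 4 had none in 62308393. Against a floor of 3 counts over the neonatal group (0.0212 CPM) the adult mean makes Ccl2 at least 88.7-fold lower in neonatal LICs. Without adult replicate 1, a choice made after seeing the data, the bound is 28.4-fold, and against adult replicate 4 alone there is none. At the pooled adult rate neonatal replicate 4 would have held 6.06 counts. The gene was below the filter on 6 libraries, and without neonatal replicate 4 its edgeR adjusted p was 0.141.

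Cxcl2 and Cxcl10 are inducible CXC chemokines. Cxcl2 draws neutrophils through CXCR2 and is a target of NF-kB. Cxcl10 draws activated T cells through CXCR3 and is induced by interferon. Both lie on chromosome 5, Cxcl2 from 90903899 to 90905938 (plus strand) and Cxcl10 from 92346639 to 92348889 (minus strand). Their upstream windows, chr5:90903649-90903898 (plus strand) and chr5:92348890-92349139 (minus strand), are shown for the motifs of those inducers, with the same 4 motifs in capitals.
Cxcl2: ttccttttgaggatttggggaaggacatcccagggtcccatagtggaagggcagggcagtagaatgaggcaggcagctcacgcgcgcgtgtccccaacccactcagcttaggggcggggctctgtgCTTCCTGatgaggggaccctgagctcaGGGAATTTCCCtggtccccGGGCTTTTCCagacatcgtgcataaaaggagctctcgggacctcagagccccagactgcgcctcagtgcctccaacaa
Cxcl10: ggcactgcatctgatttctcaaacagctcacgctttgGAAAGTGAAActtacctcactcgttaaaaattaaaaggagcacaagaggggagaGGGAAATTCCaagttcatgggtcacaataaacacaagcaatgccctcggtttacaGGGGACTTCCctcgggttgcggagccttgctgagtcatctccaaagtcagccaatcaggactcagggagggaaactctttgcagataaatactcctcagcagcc
The Cxcl2 window held 3 NF-kB matches, those starting 97 and 96 bases upstream overlapping and the other at 78, and 1 ETS core match at 124. The Cxcl10 window held 2 NF-kB matches at 159 and 104 bases upstream and 1 interferon-response-like match at 213. The table of upstream sequences held 6 of the 10 genes, without Ccl2, Ccl4, Ccl5 and Cxcl16. The windows of Ccl3 and Pf4, not printed, held 0 matches to any of the 4 motifs.

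Cxcl10 was at 0, 0.425 and 0.133 CPM in replicates 4, 7 and 8 of the neonatal group, against 2.45, 1.47 and 0.888 CPM in adult replicates 1, 2 and 4. The adult values were all above those of neonatal replicates 7 and 8, while the floor of neonatal replicate 4 (0.897 CPM) lies above the value of adult replicate 4. The log2 fold change of -2.76 ± 0.96 (SE) did not pass edgeR's test (adjusted p = 0.312), nor without neonatal replicate 4 (-2.50 ± 0.96, SE, adjusted p = 0.144). It was negative in all 15 alternatives that tested it (-3.88 to -2.31, adjusted p 0.0612 to 0.679).

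Cxcl2 had 0, 0 and 37 counts in neonatal replicates 4, 7 and 8 (0, 0 and 0.548 CPM), against 104, 88 and 0 counts in adult replicates 1, 2 and 4 (1.74, 1.31 and 0 CPM). All neonatal reads came from replicate 8, and neonatal replicate 7 and adult replicate 4 had none although both were deep. The groups overlapped, and the log2 fold change was -2.14 ± 1.94 (SE, edgeR adjusted p = 0.741).

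Cxcl16 differs from the others in that it is made as a membrane-bound protein and can be shed. It signals through CXCR6. It was at 0, 0.127 and 0.370 CPM in replicates 4, 7 and 8 of the neonatal group, against 0.435, 0.551 and 0.405 CPM in adult replicates 1, 2 and 4. All adult values lay above those of neonatal replicates 7 and 8, and the floor of neonatal replicate 4 lies above every adult value (-1.14 ± 0.92 as log2 fold change and SE, with an edgeR adjusted p of 0.700). Exons of Cxcl16 overlap those of Zmynd15 on the opposite strand, and reads were counted without a strand option, so its counts are uncertain. Adam10, the gene of a protease that sheds CXCL16, was at 60.4 to 183 CPM in neonatal libraries and 148 to 173 CPM in the adult ones.

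Pf4, a chemokine stored in platelet granules and also known as CXCL4, is counted as a megakaryocyte gene. It was at 0, 0.0991 and 0.0296 CPM in replicates 4, 7 and 8 of the neonatal group, against 1.29, 0.491 and 0.0935 CPM in adult replicates 1, 2 and 4. Adult replicates 1 and 2 stood above neonatal replicates 7 and 8, and adult replicate 4 lay just under neonatal replicate 7. The floor of neonatal replicate 4 (0.897 CPM) lies above adult replicates 2 and 4. The pooled counts were 9 in neonatal and 116 in adult libraries, a ratio of 0.105 (counting interval 0.0467 to 0.206, which leaves out the spread between libraries). Pf4 was below the filter on 6 libraries, and leaving out neonatal replicate 4 gave -3.23 ± 1.5 on the log2 scale (SE, with an edgeR adjusted p of 0.204). Among platelet genes, Gp5 and Gp6 had 0 counts in every library and Ppbp had counts in adult replicate 1 only. Others of the list had reads. Gp9 was at 0.299, 0.212 and 1.60 CPM in neonatal libraries and 2.03, 2.80 and 0 CPM in the adult ones. Gp1bb was at 0.598, 0.425 and 1.16 CPM in neonatal libraries and 0.234, 1.64 and 0.0312 CPM in the adult ones. Itga2b, the gene of the platelet integrin subunit CD41, was at 0, 6.73 and 44.2 CPM in neonatal libraries and 0.352, 2.14 and 0.421 CPM in the adult ones. Itgb3, its partner subunit gene, was at 0.897, 19.2 and 24.7 CPM in neonatal libraries and 3.17, 10.6 and 0.888 CPM in the adult ones. Vwf, the von Willebrand factor gene, was at 0.299 to 2.87 CPM in neonatal libraries and 0.654 to 10.9 CPM in the adult ones. None of the 7 tested platelet markers passed edgeR's test (5 with a positive and 2 with a negative log2 fold change, median 1.19). By edgeR 1 had an unadjusted p under 0.05 (11.9% over all genes), DESeq2 called 1 (5.72% over all genes) and limma voom 0.

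**Figure D3:**
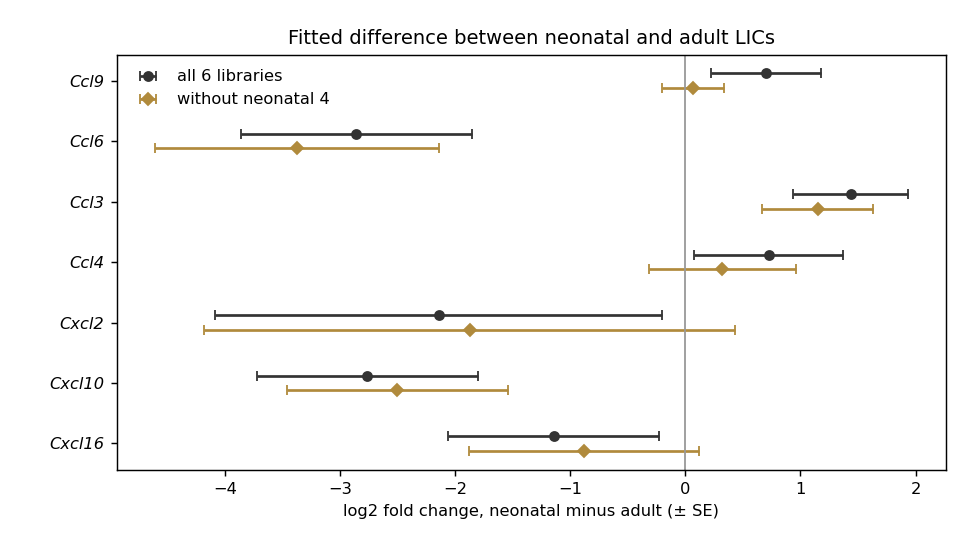
Log2 fold change, neonatal minus adult, with its SE, of the 7 chemokine genes tested by edgeR on all 6 libraries (circles) and without neonatal replicate 4 (diamonds). Ccl6 is at -2.86 and -3.37 and Ccl3 at 1.44 and 1.15, and none of these estimates passed an adjusted p of 0.05.

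All 7 receptor genes of these chemokines passed the filter, and 6 of them had a negative log2 fold change (median -0.79, against 0.05 over all genes). The sign of Ccr1 (-0.01 to 1.84), Cxcr2 (-1.08 to 0.30) and Cxcr3 (-1.02 to 0.24) differed among 16 alternatives. By edgeR 0 of the 7 passed and 2, Ccr3 among them, had an unadjusted p under 0.05 (11.9% over all genes). DESeq2 called 1 (5.72% over all genes), limma voom with library quality weights 1 (1043 of 13272 genes) and limma voom 0. Ccr1, the receptor of CCL3, CCL6 and CCL9, was at 59.5, 72.5 and 19.3 CPM in neonatal libraries and 20.2, 81.0 and 7.91 CPM in the adult ones (0.47 ± 0.84 as log2 fold change and SE, with an edgeR adjusted p of 0.887). Its values overlapped widely between the groups.

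Ccr2, the receptor of CCL2, was at 48.7, 28.6 and 10.4 CPM in neonatal libraries and 74.1, 51.5 and 24.7 CPM in the adult ones (-0.79 ± 0.61 as log2 fold change and SE, with an edgeR adjusted p of 0.688). Cxcr2, the receptor of CXCL2, was at 42.4, 12.2 and 8.47 CPM in neonatal libraries and 31.5, 16.7 and 17.6 CPM in the adult ones, and its log2 fold change was -0.09 on 6 libraries and -1.08 without neonatal replicate 4. These receptor genes were thus counted at over 8 CPM in libraries where their ligands Ccl2 and Cxcl2 had 0 counts.

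Ccr3, Cxcr3 and Cxcr6 were low. Ccr3, an eosinophil receptor that also binds CCL5, had 0, 1 and 1 counts in neonatal replicates 4, 7 and 8, against 0.318, 0.952 and 0.794 CPM in the adult libraries (-5.42 ± 1.10 as log2 fold change and SE, with an edgeR adjusted p of 0.140, and between 0.0107 and 0.431 in 16 alternatives). Cxcr3, the receptor of CXCL10, was at 0 to 0.237 CPM in neonatal libraries and 0.0935 to 0.519 CPM in the adult ones, and Cxcr6, the receptor of CXCL16, at 0 to 0.397 CPM in neonatal libraries and 0.109 to 0.854 CPM in the adult ones. Of the atypical receptors, which bind chemokines without the usual signal, 2 of 5 were tested, and 0 were called by edgeR (0 with an unadjusted p under 0.05), DESeq2 or limma voom. Ccrl2 was at 2.04 to 5.08 CPM in neonatal libraries and 4.72 to 5.23 CPM in the adult ones and Ccbp2 at 0 to 0.623 CPM in neonatal libraries and 0.0670 to 0.908 CPM in the adult ones.

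**Figure D4:**
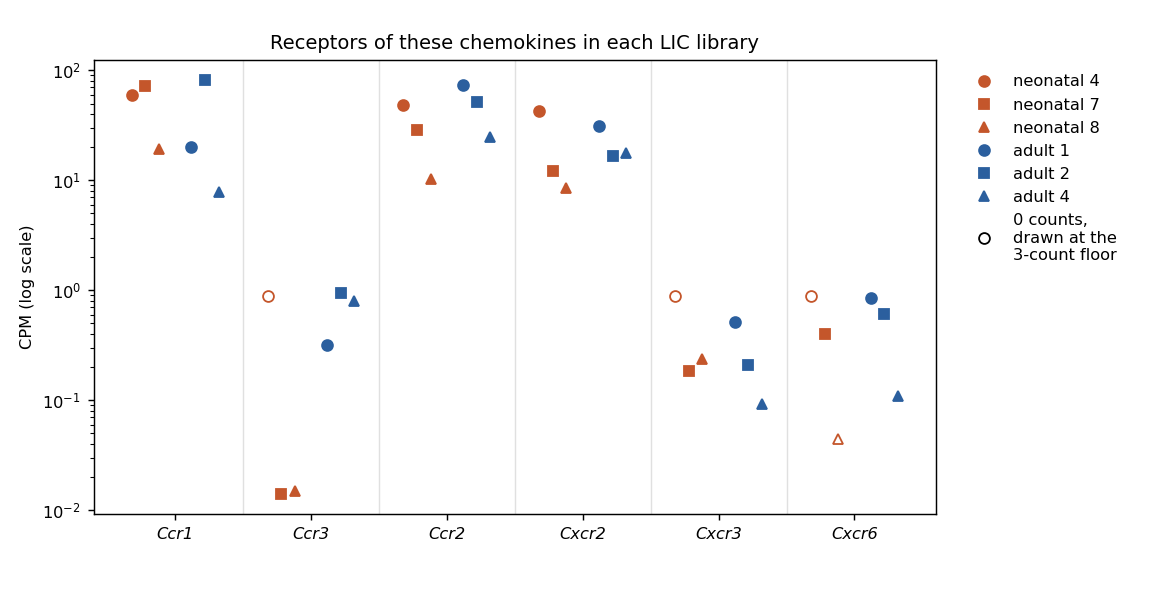
CPM (log scale) of 6 receptor genes of these chemokines in each library, neonatal left of adult, with 0 counts as open symbols at the floor of 3 counts. Ccr1, Ccr2 and Cxcr2 lie above 7 CPM in every library, and Ccr3, Cxcr3 and Cxcr6 below 1 CPM.

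Genes that respond to the inducers of inflammatory chemokines had log2 fold changes of either sign. For 9 of 16 tested NF-kB response genes the log2 fold change was above 0 (median 0.16). By edgeR 0 passed on 6 libraries, 0 with an unadjusted p under 0.05, and 0 by DESeq2 or limma voom. With library quality weights limma voom called 1 (1043 of 13272 genes). Without neonatal replicate 4, 1 of 16 rose in neonatal LICs, Icam1, an adhesion molecule gene, against 5.98% of all genes called in that fit. Icam1 had 38.1 and 48.8 CPM in replicates 7 and 8 of the neonatal group and 10.4 to 20.7 CPM in the adult libraries (edgeR adjusted p = 0.0499, and between 0.0413 and 0.890 in 16 alternatives). It was at 6.87 CPM in neonatal replicate 4. Nfkb1, an NF-kB subunit gene, was at 109 to 370 CPM in neonatal libraries and 88.7 to 161 CPM in the adult ones. Nfkbia, its inhibitor gene, was at 115 to 193 CPM in neonatal libraries and 111 to 262 CPM in the adult ones, and Zfp36, which destabilises inflammatory mRNA, at 32.9 to 125 CPM in neonatal libraries and 23.4 to 58.4 CPM in the adult ones.

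For 11 of 17 tested interferon response genes the log2 fold change was above 0 (median 0.22). By edgeR 0 passed and 1, Ifit2, had an unadjusted p under 0.05 (11.9% over all genes), and DESeq2 and limma voom called 0. Ifit2 was at 6.87, 13.0 and 7.39 CPM in neonatal libraries and 22.2, 15.3 and 41.5 CPM in the adult ones. Its log2 fold change of -1.52 was negative like that of Cxcl10 (edgeR adjusted p = 0.283). Without neonatal replicate 4 again 0 of 17 passed edgeR's test, with 3 at an unadjusted p under 0.05 against 29.5% of all genes. Irf1, a transcription factor gene, was at 35.6 to 62.4 CPM in neonatal libraries and 24.6 to 43.4 CPM in the adult ones, and Bst2, an antiviral membrane protein gene, at 37.1 to 51.7 CPM in neonatal libraries and 24.4 to 33.7 CPM in the adult ones. Cxcl10 thus had a negative log2 fold change beside interferon response genes of either sign.

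Serglycin holds chemokines in granules, and CD44 can hold them at the cell surface. Srgn, the serglycin gene, was at 2324, 835 and 692 CPM in neonatal libraries and 2900, 2122 and 1991 CPM in the adult ones. Without neonatal replicate 4 it fell in neonatal LICs by 1.60 on the log2 scale (edgeR adjusted p = 0.0360, and between 0.0349 and 0.902 in 16 alternatives). Cd44 was at 81.6, 252 and 291 CPM in neonatal libraries and 113, 120 and 82.1 CPM in the adult ones, and without neonatal replicate 4 it rose by 1.39 on the log2 scale (edgeR adjusted p = 0.0360, and between 0.0360 and 0.794 in 16 alternatives). They were 2 of 7 genes of their list tested in that fit, where 5.98% of all genes passed. On all 6 libraries neither passed (edgeR adjusted p = 0.567 and 0.472). Of the 6 tested genes of CXCL16 shedding and chemokine storage 0 passed then by edgeR and 0 had an unadjusted p under 0.05. DESeq2 and limma voom called 0, and limma voom with library quality weights called 2 (1043 of 13272 genes).

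For each tested chemokine the gene with the most similar profile was sought among tested genes with a mean of at least 5 CPM (9746 or 9747 candidates), by the root mean square difference of log2(CPM + 0.5), centred on each gene's mean, over 6 libraries. Ccl9 was nearest to Gcsh (0.09), Ccl3 to Ngfrap1 (0.17), Ccl4 to AU022252 (0.13) and Ccl6 to Gngt2 (0.57). Cxcl10 was nearest to Yod1 (0.15), Cxcl2 to Cav2 (0.29) and Cxcl16 to Pdpk1 (0.06). These 3 chemokines were at most at 2.45 CPM, where the added 0.5 flattens a profile and makes such differences smaller. Their 0 counts in neonatal replicate 4 entered as 0 CPM, below the floor of that library. Gngt2 had 5.98, 2.36 and 1.27 CPM in replicates 4, 7 and 8 of the neonatal group, against 25.4, 7.26 and 1.29 CPM in adult replicates 1, 2 and 4, and like Ccl6 it was high in adult replicates 1 and 2. With 6 libraries such a match describes these samples only.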

How the data were processed

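PolyA-selected RNA of sorted mouse LICs was read single-end. The deposited values are raw read counts per gene, made with featureCounts 1.5.1 from primary alignments without a strand option on a UCSC mm10 annotation, per the file headers. Trimmomatic, Bowtie, TopHat and DESeq2 stand without a version in the submitters' processing notes. The exon lengths in the deposited table gave CPM per kilobase. All 6 libraries entered an edgeR 4.0.16 fit (R 4.3.3, filterByExpr with a minimum count of 10, TMM, robust quasi-likelihood F test, Benjamini-Hochberg over all genes, threshold 0.05). The SE is the absolute log2 fold change over the square root of F. The fit was tested on simulated counts. Alternatives used limma 3.58.1, DESeq2 1.42.0, other scalings and filters, thinned libraries and each library left out. Members and lists were chosen with earlier results of these data known. Of 13 lists, genes are named where they passed in the fit with or without neonatal replicate 4 (up to 4 a list), or had the highest mean CPM (up to 3 a list), with all members and receptors. Values of 2 genes this rule names are not reported here. C1qa, Cd5l, Lcn2, Gp5, Gp6, Ppbp, Gp9, Gp1bb, Cd3d, Cd8a, Ifit2 and the T cell markers at 0 counts were named after their values were seen. Upstream windows came from RefSeq. Older symbols were matched for 6 listed genes through synonyms.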

Additional observations from a re-analysis of the deposited data

How the results depend on the processing

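No paired analysis was possible because the groups share only replicate number 4. The count of genes called by edgeR was 7. It became 1043 with limma voom and library quality weights, 759 with DESeq2, 4 with all libraries thinned to the shallowest, and 0 with chromosomes X and Y left out (1527 genes then had an unadjusted p under 0.05). Leaving out single libraries gave 1 (without adult replicate 1) to 828 (without neonatal replicate 4), with 2 without adult replicate 2, 3 without adult replicate 4 and 4 without neonatal replicate 7. Of the 7 calls 28.6% were higher in neonatal LICs. That share was 16.7% of 6 calls with upper quartile scaling, 62.3% without neonatal replicate 4, 50.9% with quality weights, 42.6% with DESeq2 and 0% with thinned libraries. Of the 10 chemokines 0 were called in 15 of 16 alternatives, and DESeq2 called 1, Ccl6. No tested chemokine changed sign in any alternative. The cause of these shifts was not tested. Depth limits Ccl2, Ccl5, Cxcl2, Cxcl10, Cxcl16 and Pf4 in neonatal replicate 4, where at the pooled adult rate 0.228 to 6.06 counts would be found.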

Other observations

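Among 30 other listed chemokine genes 12 had 0 counts in every library and 5 were tested, with 0 called by edgeR (0 at an unadjusted p under 0.05), DESeq2 or limma voom. The highest was Ccl25, a thymic and gut chemokine gene, at 1.93 to 5.68 CPM in neonatal libraries and 3.32 to 4.14 CPM in the adult ones. Ccl27a, a skin chemokine gene with near-identical copies whose reads may be split, was at 2.01 to 2.39 CPM in neonatal libraries and 2.22 to 3.37 CPM in the adult ones. Cxcl5, a neutrophil chemokine gene, was at 0.0741 to 0.598 CPM in neonatal libraries and 0.234 to 0.491 CPM in the adult ones. Cxcl12, the niche chemokine gene that holds stem cells in marrow, was chosen after its values were seen. It had 0, 0.977 and 0 CPM in neonatal replicates 4, 7 and 8, and 0, 0 and 3.61 CPM in adult replicates 1, 2 and 4.

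Markers of stroma and endothelium were mostly low, with Cdh5, Kdr and Col3a1 at 0 counts in every library. Pdgfrb, a growth factor receptor gene of stroma, was at 13.4, 57.0 and 110 CPM in neonatal libraries and 5.54, 13.3 and 4.16 CPM in the adult ones, and it was the 1 of 4 tested that rose in neonatal LICs without neonatal replicate 4, against 5.98% of all genes (edgeR adjusted p = 0.0375, and 0.195 on 6 libraries). Pecam1, an adhesion gene also expressed by blood cells, was at 64.0 to 96.4 CPM in neonatal libraries and 21.9 to 63.8 CPM in the adult ones. Lepr was at 1.69 to 7.47 CPM in neonatal libraries and 3.71 to 6.10 CPM in the adult ones.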
